A study of Mus musculus with 8 samples.

Results

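Libraries labelled ZMYND11 KO_2h were compared with libraries labelled WT_0h across all genes. The KO 2 h group is made of NIH3T3 cells, an immortalised mouse fibroblast line of Swiss albino origin, edited with CRISPR to lose Zmynd11 and then exposed for 2 h to recombinant mouse interferon-beta (IFN-β), 100 units/ml. The extraction protocol speaks of mouse embryonic fibroblasts, while the other labels name NIH3T3. The WT 0 h group is made of unedited NIH3T3 cells with no agent (0 h). Both groups grew in medium with donor bovine serum, and each holds 2 libraries, so 4 of the 8 libraries of the series enter the comparison. The other 4 are labelled KO 0 h and WT 2 h, with 2 libraries each, and serve to estimate the spread and for values set side by side. The groups differ in genotype and in treatment at once, so the effect of the knockout and that of IFN-β cannot be told apart here. The labels name no clone, guide or culture, and nothing states that replicate libraries are separate cultures, so a p-value reflects just the scatter of these samples, which may be technical.

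IFN-β binds the receptor chains Ifnar1 and Ifnar2, the kinases Jak1 and Tyk2 then phosphorylate transcription factors such as Stat2, which joins Irf9 in a complex that binds interferon-stimulated response elements (ISRE) in the promoters of antiviral genes. Fibroblasts respond to it directly, and they are also the main makers of collagen and other matrix proteins. Zmynd11 is a chromatin reader that binds a methylated form of the histone variant H3.3 on transcribed genes and has been tied to transcript elongation and splicing.

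Gene reads summed to 13671013 to 21299120 in the 4 libraries, and reads were found for 15053 to 15945 genes in each. Levels are given as CPM, the usual depth-scaled read count, with library sizes adjusted by the TMM method, and 1 read was worth 0.0460 to 0.0700 CPM. In the KO 2 h libraries 42.6 to 42.9% of all reads were assigned to no single gene, against 36.9 to 38.7% in the WT 0 h libraries. One of the other libraries, KO 0 h replicate 2, had reads for 17498 genes. Cells were checked against fibroblast markers, of which 10 of 12 had enough reads to be tested. Their summed level was 33781 to 33865 CPM in WT 0 h and 9120 to 9592 CPM in KO 2 h, and 9 of the 10 were lower in KO 2 h (the background for lower calls is given below). The collagen genes Col1a1 and Col1a2 weighed heavily in this sum. Their means were 10526 and 11763 CPM in WT 0 h and 949 and 2071 CPM in KO 2 h. Lymphocyte markers summed to 0.342 to 0.442 CPM in WT 0 h and 0.490 to 0.644 CPM in KO 2 h, with Cd3e, Cd3d and Ms4a1 among those at 0 in both groups.

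Zmynd11 was looked at first, as the target of the knockout. It stood at 123 and 120.4 CPM in the 2 WT 0 h libraries and at 3.31 and 4.69 CPM in the 2 KO 2 h libraries, where 72 and 67 reads of it were counted. Ifit1, whose antiviral product recognises foreign RNA ends, stood at 1.22 and 1.38 CPM in WT 0 h and at 396 and 380.1 CPM in KO 2 h. These levels go the way both labels say, and the 2 groups were chosen for that, so they are given with no test. They do not in the other groups: the libraries labelled KO 0 h held Zmynd11 at 137 and 131 CPM and Ifit1 at 196 and 229 CPM, and those labelled WT 2 h held them at 3.18 and 3.61 and 1.73 and 3.95 CPM. Whether these labels were exchanged cannot be settled from the files. The groups are called by their labels below, and if KO 0 h and WT 2 h were exchanged, each value given for KO 0 h against WT 2 h would be that of WT 2 h against KO 0 h.

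To show the sequences that the interferon-induced and stress-induced genes carry before their start, promoters from RefSeq (build GRCm38.p6, matched by symbol) were searched. A window covers the 250 bases before an annotated start and is printed 5′ to 3′ on the gene's strand. The motifs were the ISRE core (GAAA, then 2 bases of any kind, then GAAA) for the interferon lists, the E2F-type element TTTNNCGC for DNA replication, the sterol element TCACNCCAC and the amino acid response element TGATGNAA for the stress list, each on both strands. Capitals mark the matches. The first 3 windows belong to the called interferon list members with an ISRE match and the largest fold changes, and the last 2 to the replication and stress genes with a match and the largest fold changes. Irgm2 and Igtp encode GTPases of cell-autonomous immunity, Mcm5 a subunit of the replicative helicase and Chac1 an enzyme that degrades glutathione.
Irgm2 (chr11:58214727-58214976, plus strand): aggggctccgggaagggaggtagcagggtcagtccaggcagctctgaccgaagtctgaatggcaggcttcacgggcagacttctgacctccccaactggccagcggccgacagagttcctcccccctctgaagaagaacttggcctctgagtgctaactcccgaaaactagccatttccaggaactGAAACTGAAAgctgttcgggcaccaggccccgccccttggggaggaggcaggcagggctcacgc
Ifit1 (chr19:34640639-34640888, plus strand): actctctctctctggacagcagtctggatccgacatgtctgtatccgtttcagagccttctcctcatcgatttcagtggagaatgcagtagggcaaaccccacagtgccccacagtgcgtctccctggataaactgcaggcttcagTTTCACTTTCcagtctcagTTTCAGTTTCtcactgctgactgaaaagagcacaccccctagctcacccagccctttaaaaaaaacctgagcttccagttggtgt
Igtp (chr11:58199306-58199555, plus strand): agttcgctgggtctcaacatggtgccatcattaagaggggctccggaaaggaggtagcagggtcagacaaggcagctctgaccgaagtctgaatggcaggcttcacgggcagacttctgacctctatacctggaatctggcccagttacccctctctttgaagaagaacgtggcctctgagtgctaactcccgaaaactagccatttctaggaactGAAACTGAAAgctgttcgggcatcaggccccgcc
Mcm5 (chr8:75109259-75109508, plus strand): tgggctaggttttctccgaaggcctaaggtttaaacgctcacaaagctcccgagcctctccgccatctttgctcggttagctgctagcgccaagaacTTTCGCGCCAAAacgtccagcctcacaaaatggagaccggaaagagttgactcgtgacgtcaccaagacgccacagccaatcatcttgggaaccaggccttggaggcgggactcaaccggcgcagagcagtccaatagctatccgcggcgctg
Chac1 (chr2:119350992-119351241, plus strand): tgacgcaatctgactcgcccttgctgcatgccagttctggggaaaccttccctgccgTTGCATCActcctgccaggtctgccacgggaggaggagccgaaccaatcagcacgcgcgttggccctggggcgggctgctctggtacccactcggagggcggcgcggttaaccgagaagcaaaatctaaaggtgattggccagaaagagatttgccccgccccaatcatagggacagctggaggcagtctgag
The Ifit1 window holds 2 ISRE matches, which begin at -104 and -85 from the start. Irgm2 and Igtp hold 1 match each, at -64 and -34, with the same letters. The Mcm5 window holds a pair of overlapping matches, 1 on each strand.

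An ISRE match was found for 10 of 30 antiviral effectors with a window, 7 of 8 interferon-inducible GTPases, 5 of 24 genes of sensing and signalling and 3 of 17 genes of class I antigen presentation. Over the 9459 tested genes with a window the share was 3.07%, and over all 32851 windows 2.98%. With the last 150 bases alone, the sensing and signalling list had 3 matches. Of the 25 members of these lists with a match, 22 were higher in KO 2 h and 1 was lower, with a median log2 fold change of 3.92. Ifit1, which helped to choose the groups, is among the 25 and the 22. The 54 members with a window but no match had 41 higher and 3 lower and a median of 1.28. The make-up of these 2 sets differs, as 7 of 8 GTPases, the list with the highest median (6.45), had a match. Match and list were not separated. E2F-type matches were found for 7 of 26 replication genes (8.30% of all tested genes with a window), and amino acid response matches for 5 of 26 stress genes (2.46%). No match to the sterol element was found among 15 sterol genes (1.22%), which says only that these letters are not in these windows. A match is a description of letters, and no binding was measured.

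The comparison asks which transcripts differ between unedited, untreated cells and knockout cells after IFN-β. In KO 2 h, most interferon-induced genes and most immediate early genes, such as Fosb, were higher, while genes of DNA replication, mitosis and sterol synthesis and most collagen genes were lower. Of 12807 genes tested with edgeR, 7975 differed at an adjusted p below 0.05, which is 62.3% of them. These comprised 3949 higher (30.8%) and 4026 lower (31.4%) genes, and the median log2 fold change over all genes was 0.01. With a change of at least 2-fold, 1514 were higher (11.8%) and 1039 lower (8.11%). The libraries of the 2 groups did not overlap for 81.9% of all genes, so a gap between groups is common here and each list below is read against these shares. Tested against a fold of 1.5 rather than no change, edgeR called 3090 genes. Scaled by library size alone, which moved the median of all genes to 0.14, edgeR called 4795 higher and 3188 lower, so the share of higher calls went from 49.5 to 60.1%. RNA from whole cultures was measured, in which fewer cells of a type and less RNA per cell cannot be told apart.

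**Figure D1:**
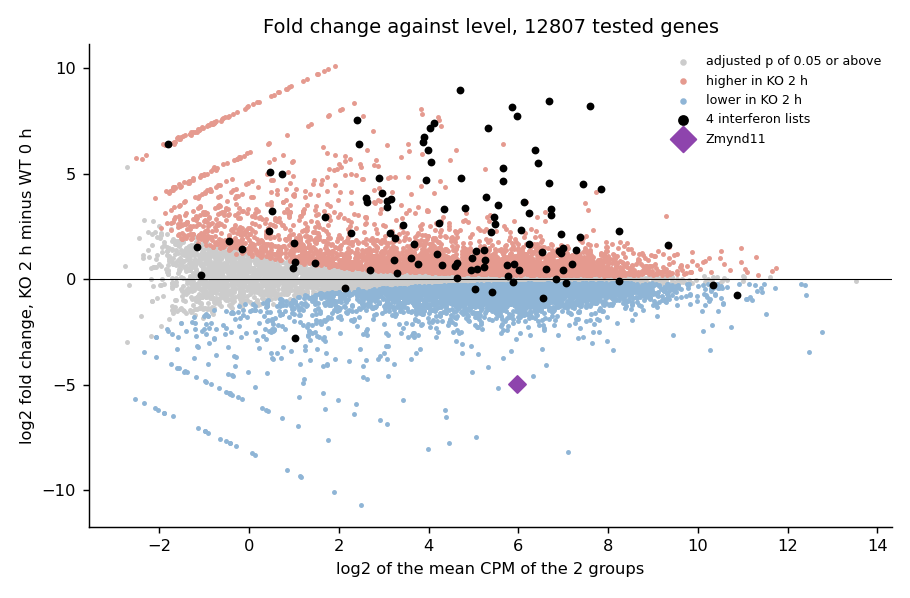
Log2 fold change of KO 2 h against WT 0 h (y axis) for each of 12807 tested genes by the log2 of its mean CPM in the 2 groups (x axis), with called genes in colour, the genes of the 4 interferon lists in black and Zmynd11 as a diamond. Most interferon genes lie above 0, the median over all genes is 0.01, and the slanted rows of points at low level are genes with few or no reads in 1 group.

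Interferon-induced genes were higher in KO 2 h as a group. Across 4 lists with 107 tested genes, 88 were higher and 6 lower, and 71 of the higher genes changed at least 2-fold (median log2 fold change 2.12). Of 42 antiviral effectors, Ifit1 included, 34 were higher and 2 lower (median 3.17, where 30.8% of all genes were higher). The 2 groups were chosen partly for their Ifit1 level, so its own call is no evidence. Genes induced together with Ifit1 are not independent of that choice, and the counts of the interferon lists describe the groups only. Mx2, a dynamin-like GTPase that blocks viral replication, stood at 0.195 and 0 CPM in WT 0 h and at 58.4 and 44.97 CPM in KO 2 h (log2 fold change 8.95 with an SE of 0.32, edgeR adjusted p = 4.37e-16). Its WT 0 h libraries held 4 and 0 reads, and the KO 2 h libraries 1271 and 642. Usp18, which removes Isg15 from proteins and restrains the receptor, rose from 0.440 and 0.344 to 123 and 106 CPM (log2 fold change 8.17 with an SE of 0.18, edgeR adjusted p = 6.32e-20). Both KO 2 h libraries lay far above both WT 0 h libraries for these genes. Oas1b, of the family that senses double-stranded RNA, rose from 0.147 and 0.393 to 33.4 and 25.7 CPM (log2 fold change 6.75 with an SE of 0.28, edgeR adjusted p = 3.21e-15). Isg15, a ubiquitin-like modifier, rose by a log2 fold change of 3.92 (SE 0.12). Both genes that were lower, Ifitm2 at -0.90 (SE 0.08) and Ifi27l2a at -2.77 (SE 0.43), are counted as interferon-induced as well. Ifitm3, Isg20, Ifi44, Samhd1, Apobec3 and Parp12 did not pass the test.

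All 14 tested interferon-inducible GTPases were higher in KO 2 h, each at least 2-fold, with log2 fold changes of 3.35 to 8.44 and a median of 6.45. Some proteins of these families attack the membranes around intracellular microbes. Irgm2 rose from 0.782 and 0.393 to 209.5 and 203 CPM (log2 fold change 8.44 with an SE of 0.16, edgeR adjusted p = 6.18e-21), and Igtp from 0.733 and 0.442 to 137 and 114 CPM (log2 fold change 7.72 with an SE of 0.20, edgeR adjusted p = 1.96e-18). Gbp10, a guanylate-binding protein, rose from 0 and 0.0983 to 11.8 and 9.11 CPM (log2 fold change 7.56 with an SE of 0.47, edgeR adjusted p = 3.63e-12). No library of one group reached the other for these 3 genes. Gbp8 rose from 0.147 and 0.246 to 33.9 and 35.6 CPM (log2 fold change 7.42 with an SE of 0.26, edgeR adjusted p = 1.05e-16). Members of this family share sequence, the tables count multi-mapped reads in a summary line rather than in genes, and single values are therefore uncertain. Of the list, Gbp5, Tgtp1 and Gvin1 had too few reads to be tested, with 0 to 3 reads in each of the 4 libraries.

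In the list of nucleic acid sensors and interferon signal transducers 24 of 30 genes were higher and 2 lower (median 0.79). The receptor chain Ifnar1 (-0.13, SE 0.09) and the kinase Jak1 (-0.07, SE 0.07) did not pass the test, while Ifnar2 (0.48, SE 0.11) and Tyk2 (0.62, SE 0.12) were higher. The components of the response complex lay further apart. Stat2 stood at 14.7 and 14.6 CPM in WT 0 h and at 352 and 312 CPM in KO 2 h (log2 fold change 4.50 with an SE of 0.10, edgeR adjusted p = 5.38e-20). Irf9, its DNA-binding partner, rose from 8.50 and 6.58 to 83.7 and 87.4 CPM (log2 fold change 3.50 with an SE of 0.12, edgeR adjusted p = 6.18e-17). So did Irf7, which amplifies interferon production, from 1.07 and 1.33 to 16.3 and 17.1 CPM (log2 fold change 3.79 with an SE of 0.23, edgeR adjusted p = 2.21e-12), and the RNA sensor Ddx58, from 20.9 and 17.2 to 198 and 185 CPM (log2 fold change 3.33 with an SE of 0.12, edgeR adjusted p = 2.42e-16). Socs1, an inhibitor of Jak kinases, was higher by 1.02 (SE 0.19). Ifih1, another RNA sensor, and Ifnb1, the ligand itself, had 0 to 5 reads in each library and were not tested.

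The class I antigen presentation list had 21 tested members, of which 16 were higher and 2 lower (median 1.31), and 18 and 1 with library size alone. Nlrc5, the transactivator of class I genes, rose from 1.56 and 1.33 to 16.7 and 14.1 CPM (log2 fold change 3.42 with an SE of 0.21, edgeR adjusted p = 3.83e-12), and the peptide transporter subunit Tap1 from 16.5 and 13.1 to 72.99 and 66.2 CPM (log2 fold change 2.23 with an SE of 0.11, edgeR adjusted p = 1.35e-13). Both KO 2 h libraries exceeded both WT 0 h libraries by several times. Psmb9, an immunoproteasome subunit, was higher by 2.95 (SE 0.30) and the class I gene H2-T24 by 2.20 (SE 0.27). The light chain B2m was higher by 1.62 (SE 0.08), and the heavy chain H2-K1 by 0.58 (SE 0.11). The genes that were lower, Calr and Pdia3, encode general chaperones of the endoplasmic reticulum. Psmb8, H2-T23 and Erap1 did not pass the test.

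**Figure D2:**
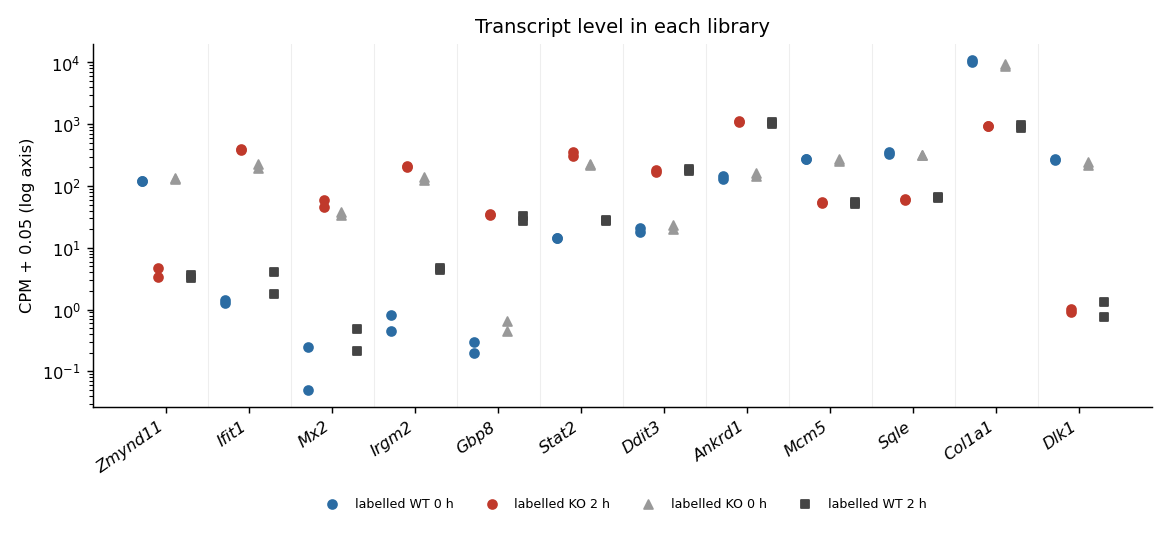
Level of 12 genes in each of the 8 libraries, as CPM plus 0.05 on a log axis, with 1 point per library (circles for WT 0 h and KO 2 h, triangles for KO 0 h, squares for WT 2 h). Ifit1, Mx2, Irgm2 and Stat2 are high in the libraries labelled KO 2 h and KO 0 h, while Zmynd11, Gbp8, Ddit3, Ankrd1, Mcm5, Sqle, Col1a1 and Dlk1 separate KO 2 h and WT 2 h from WT 0 h and KO 0 h.

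Chemokines and cytokines were divided, with 8 of 19 tested members higher and 8 lower (median -0.28). Cxcl12, a chemokine of stromal cells that binds Cxcr4, stood at 12.2 and 10.4 CPM in WT 0 h and had no read in either KO 2 h library, which is at least 136-fold lower against 3 reads summed over the group (edgeR adjusted p = 8.22e-13). Ccl2, which attracts monocytes, was lower by -2.07 (SE 0.10) on the log2 scale. Other members went the other way. Il15, a cytokine that supports natural killer cells, rose from 1.51 and 0.491 to 13.9 and 11.7 CPM (log2 fold change 3.67 with an SE of 0.29, edgeR adjusted p = 2.89e-10), Il6 from 0.831 and 0.639 to 9.19 and 8.68 CPM (log2 fold change 3.59 with an SE of 0.30, edgeR adjusted p = 5.53e-10) and Cxcl10, which attracts activated T cells, from 0.440 and 0.688 to 6.71 and 6.02 CPM (log2 fold change 3.49 with an SE of 0.35, edgeR adjusted p = 1.54e-08).

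Immediate early genes had 19 of 28 members higher in KO 2 h and 4 lower (median 0.55), and 20 higher and 2 lower with library size alone. The AP-1 subunit Fosb rose from 4.84 and 4.37 to 34.1 and 37.1 CPM (log2 fold change 2.95 with an SE of 0.14, edgeR adjusted p = 3.11e-14), and Dusp1, a phosphatase that turns off MAP kinases, from 16.3 and 18.2 to 90.9 and 86.1 CPM (log2 fold change 2.36 with an SE of 0.10, edgeR adjusted p = 5.09e-15). Zfp36, which destabilises cytokine mRNA, was higher by 1.99 (SE 0.13) and the transcription factor Klf4 by 1.39 (SE 0.09). Fos, Egr1 and Myc, which are also early genes, did not pass the test. The integrated and endoplasmic reticulum stress list had 14 of 27 higher and 8 lower (median 0.25), and 16 higher and 4 lower with library size alone. Its largest changes were in genes induced downstream of Atf4: Ddit3, a transcription factor of stress-induced cell death, went from 17.8 and 20.8 to 167 and 179 CPM (log2 fold change 3.16 with an SE of 0.10, edgeR adjusted p = 2.2e-17) and Trib3 from 7.13 and 7.08 to 48.6 and 46.2 CPM (log2 fold change 2.74 with an SE of 0.13, edgeR adjusted p = 2.8e-14). Ppp1r15a, which reverses the translational block, was higher by 2.76 (SE 0.11) and Chac1 by 2.05 (SE 0.15). Atf4 itself was lower by -0.20 (SE 0.07), and Hspa5, the main chaperone of the endoplasmic reticulum, did not pass (0.12, SE 0.07). The other lower members were Psat1, Phgdh, Shmt2, Slc7a5, Hsp90b1, Pdia4 and Edem1, and Asns, Slc3a2, Atf5 and Xbp1 did not pass either.

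Targets of other stress pathways went both ways. Of 19 p53 targets 8 were higher and 7 lower (median 0.01), which is 42.1 and 36.8%, against 30.8 and 31.4% of all genes. The growth arrest gene Gadd45a rose from 4.89 and 6.68 to 47.6 and 54.2 CPM (log2 fold change 3.13 with an SE of 0.14, edgeR adjusted p = 1.71e-14). Trp53inp1, Plk3 and Bbc3 were higher by 2.17 (SE 0.10), 1.78 (SE 0.11) and 1.75 (SE 0.20). The lower members were Ccng1, Sesn1, Zmat3, Phlda3, Tnfrsf10b, Aen and Ei24. Of 18 NF-kB genes 6 were higher and 2 lower (median 0.16), and 6 and 1 with library size alone. In this NF-kB list 44.4% were called, fewer than the 62.3% of all genes, and 33.3% were higher, near the 30.8% of all genes. Tnfaip3, an inhibitor of that pathway, rose from 7.33 and 4.52 to 37.97 and 37.5 CPM (log2 fold change 2.67 with an SE of 0.16, edgeR adjusted p = 2.07e-12), while Nfkbia, Icam1 and Vcam1 did not pass. Of 17 Nrf2 targets 4 were higher and 9 lower (median -0.30), with the quinone reductase Nqo1 at 79.8 and 71.01 CPM in WT 0 h and 23.3 and 21.01 CPM in KO 2 h (log2 fold change -1.76 with an SE of 0.10, edgeR adjusted p = 1.18e-12) and the haem oxygenase Hmox1 higher by 0.87 (SE 0.08).

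In the lists of DNA replication, mitosis, sterol synthesis and fatty acid synthesis every tested gene was lower in KO 2 h, where 31.4% of all genes were lower. All 32 S-phase and DNA replication genes were lower, with log2 fold changes of -2.32 to -0.36 and a median of -1.17. Mcm5 fell from 269 and 279 to 54.1 and 56.03 CPM (log2 fold change -2.32 with an SE of 0.08, edgeR adjusted p = 1.84e-16), and Mcm3, of the same helicase, from 301 and 313 to 77.7 and 82.9 CPM (log2 fold change -1.94 with an SE of 0.09, edgeR adjusted p = 2.55e-14). The DNA polymerase subunit Pola1 and the licensing factor Cdc6 were lower by -1.78 (SE 0.09) and -1.77 (SE 0.13). All 26 mitosis genes were lower, by -1.88 to -0.44 with a median of -1.15. Ccna2, a cyclin of S and G2 phase, fell from 247 and 242 to 67.8 and 65.00 CPM (log2 fold change -1.88 with an SE of 0.08, edgeR adjusted p = 6.55e-15), and the mitotic kinase Plk1, the centromeric histone Cenpa and the anaphase activator Cdc20 gave -1.71 (SE 0.09), -1.70 (SE 0.09) and -1.55 (SE 0.09). The replicates of each group lay close together for these genes, with a wide gap between the groups.

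Sterol synthesis had the lowest median of all lists, -1.67, with all 23 tested genes lower and 21 of them at least 2-fold. Nsdhl, a sterol dehydrogenase, fell from 109.7 and 107 to 14.98 and 15.9 CPM (log2 fold change -2.82 with an SE of 0.10, edgeR adjusted p = 8.7e-17), Fdps, which makes farnesyl diphosphate, from 83.6 and 84.03 to 14.7 and 13.7 CPM (log2 fold change -2.56 with an SE of 0.11, edgeR adjusted p = 3.32e-15), and the squalene epoxidase Sqle from 357 and 329 to 60.1 and 61.1 CPM (log2 fold change -2.50 with an SE of 0.08, edgeR adjusted p = 2.41e-17). Idi1, at 4.40 and 4.23 CPM in WT 0 h, was lower by -2.43 (SE 0.40). All 12 genes of fatty acid synthesis were lower as well (median -0.76). The elongase Elovl6 fell from 154 and 151 to 33.6 and 34.2 CPM (log2 fold change -2.17 with an SE of 0.09, edgeR adjusted p = 2.91e-15) and the desaturases Fads2 and Scd2 had log2 fold changes of -1.68 and -1.03 (SE 0.09 and 0.07).

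**Figure D3:**
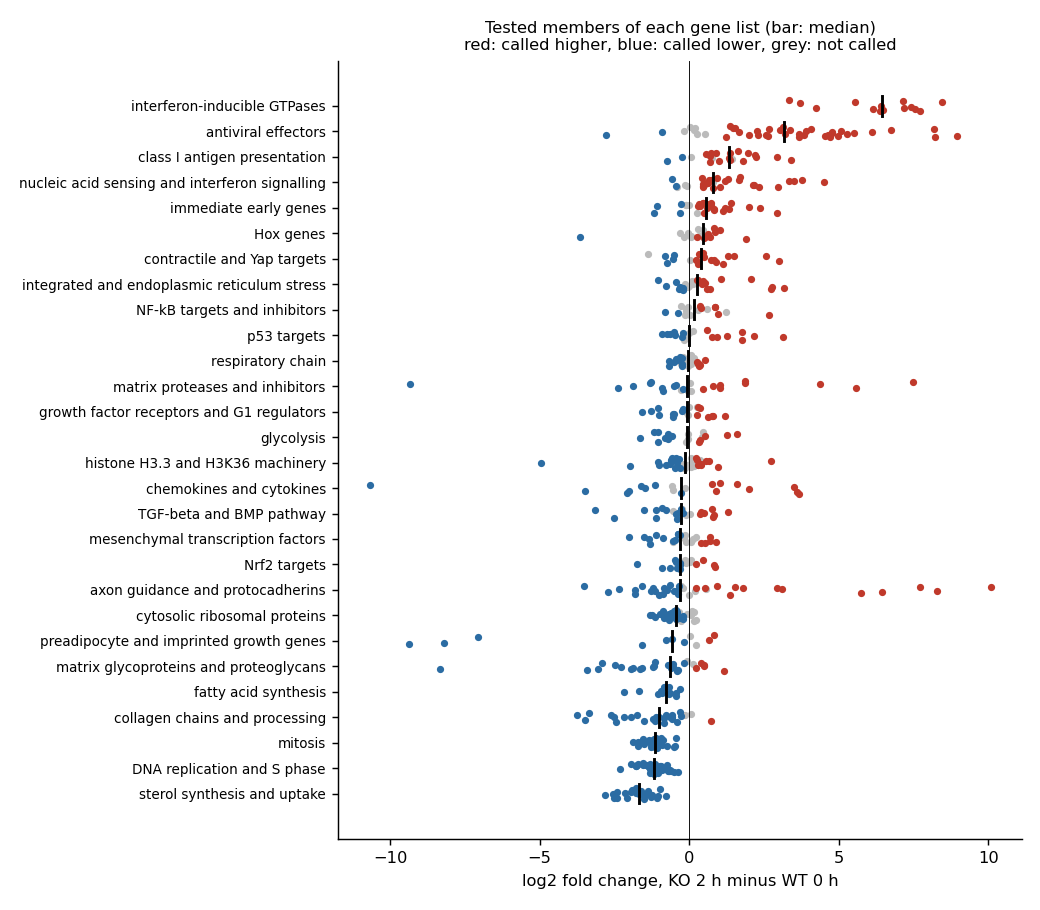
Log2 fold change of KO 2 h against WT 0 h (x axis) for the tested members of 28 gene lists (y axis), with 1 point per gene, red for called higher, blue for called lower, grey for not called, and a black bar at each median. Medians run from 6.45 for the interferon-inducible GTPases to -1.67 for sterol synthesis, and the lists of DNA replication, mitosis, sterol and fatty acid synthesis hold blue points alone.

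Matrix genes were mostly lower. Of 27 collagen chains and processing enzymes 24 were lower and 1, the procollagen proteinase Bmp1, was higher (median -1.01). Col1a1, a subunit of the most abundant fibrillar collagen, fell from 10270.0 and 10782 to 947 and 951 CPM (log2 fold change -3.47 with an SE of 0.09, edgeR adjusted p = 5.27e-19), Col3a1 from 2309 and 2161 to 219 and 224 CPM (log2 fold change -3.34 with an SE of 0.09, edgeR adjusted p = 1.93e-18) and Col11a1 from 96.5 and 92.6 to 7.12 and 6.86 CPM (log2 fold change -3.75 with an SE of 0.11, edgeR adjusted p = 4.74e-18). Both libraries of KO 2 h held about the same level of each. Of 28 matrix glycoproteins and proteoglycans 21 were lower and 5 higher (median -0.66). Fbn1, the main protein of microfibrils, fell from 432 and 454 to 59.8 and 56.7 CPM (log2 fold change -2.92 with an SE of 0.08, edgeR adjusted p = 1.96e-18), and Lama4, a laminin chain, and Ltbp2 had log2 fold changes of -3.42 and -3.04 (SE 0.11 and 0.09). Fmod, a small collagen-binding proteoglycan, stood at 1.91 and 2.51 CPM in WT 0 h and had no read in KO 2 h, at least 26.5-fold lower (edgeR adjusted p = 1.56e-06). Fibronectin (Fn1) and tenascin (Tnc) did not pass the test.

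Matrix proteases and their inhibitors went both ways, with 9 of 23 higher and 10 lower (median -0.07), and 10 and 9 with library size alone (median 0.06). Adamts2, which trims procollagen, stood at 4.93 and 3.88 CPM in WT 0 h and had no read in KO 2 h, at least 52.9-fold lower (edgeR adjusted p = 4.01e-09). The stromelysin Mmp10 had no read in WT 0 h and stood at 1.33 and 1.05 CPM in KO 2 h, at least 16.2-fold higher (edgeR adjusted p = 2.71e-05), and Mmp3 and Mmp13 were higher by 5.57 (SE 0.73) and 4.39 (SE 0.91). The inhibitor Timp1 was lower by -1.89 (SE 0.09). Of 20 contractile genes and Yap targets 13 were higher and 4 lower (median 0.40). Ankrd1, a target of Yap, rose from 128 and 148 to 1086 and 1125 CPM (log2 fold change 3.002 with an SE of 0.09, edgeR adjusted p = 4.58e-18), and the muscle filament gene Des, the kinase Lats2 and the actin-binding Tagln by 2.57 (SE 0.18), 1.49 (SE 0.08) and 1.31 (SE 0.10).

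In the TGF-beta and BMP list 7 of 23 genes were higher and 12 lower (median -0.29). The activin antagonist Fst fell from 53.6 and 57.8 to 5.93 and 6.72 CPM (log2 fold change -3.15 with an SE of 0.12, edgeR adjusted p = 9.53e-16), Id2 and Id3, targets of BMP signalling, had log2 fold changes of -2.53 and -1.52 (SE 0.14 and 0.10), and the inhibitor Smad7 was higher by 1.29 (SE 0.08). Id1 and Id4 were lower too. Of 23 mesenchymal transcription factors 5 were higher and 11 lower (median -0.30), among them Prrx2, Twist2 and Foxc1 at -2.01 (SE 0.11), -1.50 (SE 0.11) and -1.32 (SE 0.14). Of 11 preadipocyte and imprinted growth genes 7 were lower and 2 higher (median -0.58). Dlk1, found on the surface of preadipocytes, fell from 277 and 269 to 0.873 and 0.981 CPM (log2 fold change -8.21 with an SE of 0.15, edgeR adjusted p = 5.51e-21). The growth factor Igf2 stood at 3.62 and 5.36 CPM in WT 0 h and had no read in KO 2 h, at least 53.9-fold lower (edgeR adjusted p = 4.84e-09). Pdgfra, a receptor that marks fibroblasts, was lower by -1.60 (SE 0.08), and the lipase Lpl was higher by 0.82 (SE 0.09). Of 19 tested Hox genes 9 were higher and 1, Hoxb9, was lower (-3.64, SE 0.77), with a median of 0.47.

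Genes that handle histone H3.3 and H3K36 methylation were described as a list. Whether their products work with Zmynd11 was not tested. Of 34 genes of the histone H3.3 and H3K36 machinery, Zmynd11 included, 9 were higher and 15 lower (median -0.15). Zmynd11, which helped to choose the groups, is among the 15. Daxx, a chaperone of H3.3, rose from 24.7 and 25.2 to 167 and 169 CPM (log2 fold change 2.75 with an SE of 0.09, edgeR adjusted p = 2.08e-17). It was also higher in KO 0 h than in WT 2 h, by 1.11 (SE 0.08), as were most antiviral effectors (given below). In that comparison 16 genes of the H3.3 list were higher and 8 lower. The histone chaperone Asf1b fell from 83.6 and 81.6 to 21.6 and 19.9 CPM in KO 2 h (log2 fold change -1.99 with an SE of 0.10, edgeR adjusted p = 7.3e-14). The mismatch repair protein Msh6, which reads H3K36 methylation, was lower by -1.04 (SE 0.09). Both H3.3 genes were lower, H3f3a by -0.40 (SE 0.11) and H3f3b by -0.56 (SE 0.08), and the methyltransferase Setd2 did not pass (0.06, SE 0.08).

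Cytosolic ribosomal protein genes had 25 of 34 members lower and none higher (median -0.45). Rps4x fell from 181 and 187 to 68.2 and 80.1 CPM (log2 fold change -1.31 with an SE of 0.09, edgeR adjusted p = 1.22e-11), and Rpl8 and Rpl37 had log2 fold changes of -1.24 and -1.14 (SE 0.09 each). With library size alone 20 were lower and 1 was higher. The sizes given for single genes, here and in the sterol and replication lists above, include any shift of the whole chromosome (given below). Rpl3 was lower by -0.98 (SE 0.17), and by -0.35 with no call once that shift was taken out. The respiratory chain (6 of 28 higher, 9 lower, median -0.03) and glycolysis (5 of 18 higher, 8 lower, median -0.08) had medians near that of all genes. With library size alone the respiratory chain gave 11 higher and 6 lower, and the medians of both lists changed sign, to 0.09 and 0.05. In glycolysis Pgk1 was lower by -1.63 (SE 0.17) and the neuronal enolase Eno2 higher by 1.58 (SE 0.11). Of 20 growth factor receptors and G1 regulators 7 were higher and 9 lower (median -0.07), and 8 and 7 with library size alone (median 0.05). Of them, the cyclin Ccnd2 was higher by 1.19 (SE 0.07) and Egfr lower by -1.27 (SE 0.18). Of 36 axon guidance genes and protocadherins 13 were higher and 18 lower (median -0.31), and several of the higher ones had no read in WT 0 h, as given next.

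Some genes were read in 1 group alone. Of the called genes, 72 had no read in WT 0 h and 23 had none in KO 2 h. Their fold changes are lower bounds against 3 reads summed over the empty group. Pcdh9, a protocadherin of neurons, stood at 7.58 and 7.42 CPM in KO 2 h, at least 102-fold higher (edgeR adjusted p = 3.63e-11), and Gm11351, a long non-coding RNA, at 7.08 and 6.44 CPM, at least 92.0-fold higher. Sgcz (a sarcoglycan), 1110059M19Rik (now Prr32), Aloxe3 (a lipoxygenase of skin), Samsn1, Rims1 (of the synaptic active zone), 1700008F21Rik (now Ccdc7b), Lrrc4c, Hs3st1, Gpr174 and Slc6a12 (a betaine transporter) were at least 39.9-fold to 79.3-fold higher. The guidance receptor Robo2 and the protocadherin Pcdh20 were at least 19.7-fold and 28.8-fold higher. Each of those named was also read in WT 2 h, as with Pcdh9 at 8.47 and 6.50 CPM, and stood below 1 CPM in both KO 0 h libraries. Another gene without a read in WT 0 h was 2010002M12Rik, now named Ifit1bl2 and a relative of Ifit1, at 3.59 and 3.50 CPM in KO 2 h, 0.594 and 0.222 CPM in WT 2 h and 0.331 and 0.334 CPM in KO 0 h. It was at least 48.2-fold higher in KO 2 h than in WT 0 h (edgeR adjusted p = 4.89e-08).

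On the other side, the genes without a read in KO 2 h included Chi3l1, a secreted chitinase-like protein, at 8.16 and 6.73 CPM in WT 0 h and at least 89.4-fold lower (edgeR adjusted p = 4.03e-10). C1qtnf3, Tmem121, Enpp1, Lbp (which binds lipopolysaccharide) and Slc16a9 were at least 16.8-fold to 43.0-fold lower. Ddx3y, a gene of the Y chromosome, stood at 2.35 and 1.82 CPM in WT 0 h, 3.26 and 2.34 CPM in KO 0 h and 0.0540 and 0 CPM in WT 2 h, with no read in KO 2 h. It was thus higher in the libraries labelled 0 h, which are also those with more Zmynd11. Gria3, a glutamate receptor subunit, fell from 30.7 and 32.1 to 0.0919 and 0.140 CPM (log2 fold change -8.06 with an SE of 0.34, edgeR adjusted p = 5.93e-15). Hccs, which attaches haem to cytochrome c, fell from 44.3 and 42.8 to 0.184 and 0.210 CPM (log2 fold change -7.76 with an SE of 0.23, edgeR adjusted p = 9.11e-18), with 906 and 870 reads against 4 and 3. The lipase Lipg, with 1 read in KO 2 h, was lower by -7.61 (SE 0.55).

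Genes were then placed on chromosomes, by symbol or unique synonym in a RefSeq table of GRCm38.p6, which served for chromosome membership only and placed 12741 of the 12807 genes. Whole chromosomes differed between the groups. On chromosome 15 314 of 504 tested genes were lower in KO 2 h and 62 higher (62.3 and 12.3%, against 31.4 and 30.8% of all genes), with a median log2 fold change of -0.60. The X chromosome had 261 of 415 lower and 45 higher (62.9 and 10.8%) and a median of -0.64. Chromosome 18 went the other way, with 247 of 362 higher and 27 lower (68.2 and 7.46%) and a median of 0.69. Chromosomes 1, 3, 8 and 12 had medians of -0.23, -0.20, -0.18 and -0.21, and the others lay between 0.01 and 0.18. The replicates agree closely: relative to the mean of WT 0 h and over genes of at least 1 CPM, the median of chromosome 15 was -0.65 and -0.64 in the KO 2 h libraries, -0.65 and -0.63 in WT 2 h and -0.05 and -0.10 in KO 0 h. For the X chromosome these medians were -0.66 and -0.65, -0.62 and -0.71, and 0.05 and 0.10 in the same order. Chromosome 18 gave 0.69 and 0.66, 0.67 and 0.65, and 0.04 and 0.06. The shifted libraries were the 4 labelled 2 h, which are also the 4 with little Zmynd11, so time label and Zmynd11 level cannot be told apart here. The part of the shift in the single genes above was not tested beyond its removal.

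**Figure D4:**
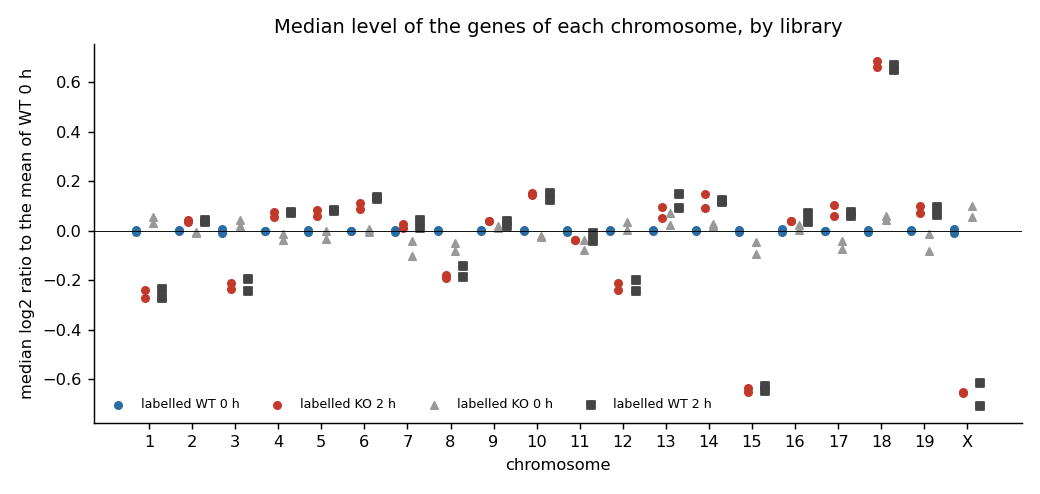
Median log2 ratio of each library to the mean of WT 0 h (y axis) over the genes of each chromosome (x axis), with 1 point per library (circles for WT 0 h and KO 2 h, triangles for KO 0 h, squares for WT 2 h). On chromosomes 15, 18 and X the 4 libraries of KO 2 h and WT 2 h lie about 0.65 from 0, and those of WT 0 h and KO 0 h lie near 0.

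When each chromosome's shift was taken out of each group, an alternative chosen after seeing the data, edgeR called 7612 genes, and 6889 calls were shared with the 7975. The lists kept their total of calls, higher and lower together, within 1.5 times. All 32 replication, 26 mitosis, 23 sterol and 12 fatty acid genes were lower as before, and the 14 GTPases higher. Calls were lost for Rpl3 (-0.35, edgeR adjusted p = 0.0927), Cyc1 (-0.05, edgeR adjusted p = 0.660), Cox6c (-0.04, edgeR adjusted p = 0.679), Lyz2 (0.80, edgeR adjusted p = 0.0531) and Cd14 (0.27, edgeR adjusted p = 0.144). The changes of G6pdx and Smad7 went from -0.93 to -0.29 and from 1.29 to 0.63.

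The other 2 groups give a comparison that shares no library with this one, KO 0 h against WT 2 h, whose labels also differ in genotype and time. In that comparison edgeR called 4034 genes higher (31.5%) and 3689 lower (28.8%). Of the 3949 genes higher in KO 2 h than in WT 0 h, 3080 were lower in KO 0 h than in WT 2 h and 149 were higher. Of the 4026 lower genes, 3353 were higher in KO 0 h and 2 lower. The difference between the 2 comparisons was tested in the same model and passed for 9089 of 12807 genes (71%), 4508 of them with a higher value here (35.2%) and 4581 with a lower one (35.8%). By its terms this difference is the sum of the groups labelled 2 h minus the sum of those labelled 0 h. A gene that passed therefore differed between the time labels, which also divide the libraries by Zmynd11 level. Most genes called between KO 2 h and WT 0 h were called the opposite way in the other comparison. Of these, Mcm5, Sqle, Col1a1, Dlk1 and Ddit3 gave 2.32, 2.26, 3.29, 7.86 and -3.05 for KO 0 h against WT 2 h.

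Interferon genes took both courses. Of the 42 antiviral effectors 37 were higher in KO 0 h than in WT 2 h and 2 lower (median 2.41), of the 14 GTPases 11 and 3 (median 2.55), of the 30 sensing and signalling genes 17 and 3 (median 0.83) and of the 21 class I genes 8 and 6 (median 0.19). Mx2, Usp18 and Irgm2 were higher in KO 0 h, by 6.86 (SE 0.29), 3.97 (SE 0.14) and 4.87 (SE 0.12). Gbp8, Gbp9 and Gbp4 were lower in KO 0 h than in WT 2 h, by -5.85 (SE 0.23), -2.18 (SE 0.11) and -1.38 (SE 0.14), and so were Nlrc5 (-0.99, SE 0.19) and B2m (-0.98, SE 0.08). Gbp9 stood at 1.91 and 2.75 CPM in WT 0 h, 15.2 and 17.8 CPM in KO 0 h, 75.01 and 74.2 CPM in WT 2 h and 167 and 159.6 CPM in KO 2 h, with no overlap between neighbours. Irgm2 also separated the 4 groups, but with KO 0 h (123 and 138 CPM) above WT 2 h (4.64 and 4.28 CPM). Gbp8 stood at 0.607 and 0.401 CPM in KO 0 h and 33.1 and 26.7 CPM in WT 2 h. Ifi44, which was not called between KO 2 h and WT 0 h (0.52, SE 0.27, edgeR adjusted p = 0.102), stood at 1.66 and 1.52 CPM in WT 0 h, 33.3 and 43.7 in KO 0 h, 0.162 and 0.167 in WT 2 h and 2.07 and 2.59 in KO 2 h. For Ifi44 the difference between the 2 comparisons, 2 h labels minus 0 h labels, was -7.29 on the log2 scale (SE 0.48, edgeR adjusted p = 4.31e-12).

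**Figure D5:**
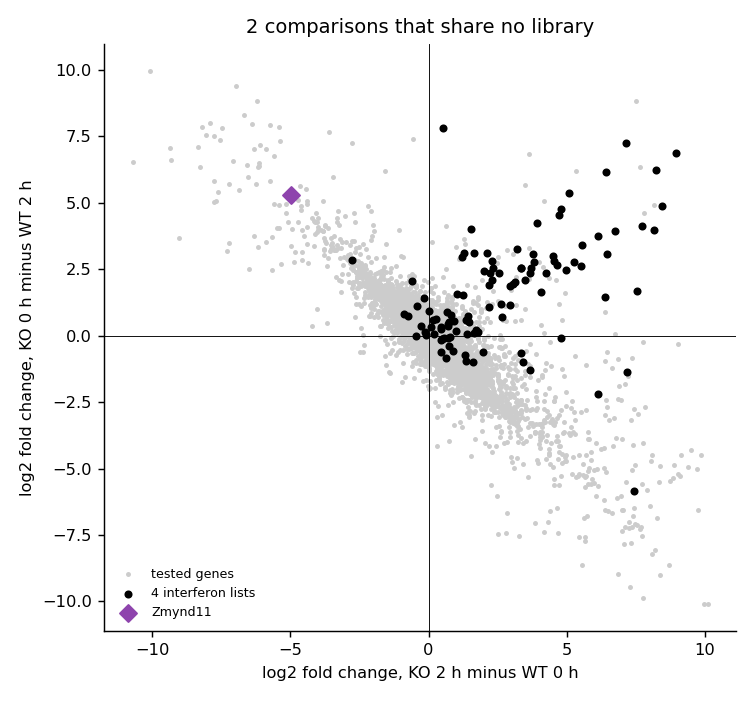
Log2 fold change of KO 2 h against WT 0 h (x axis) and of KO 0 h against WT 2 h (y axis) for 12807 tested genes, with the genes of the 4 interferon lists in black and Zmynd11 as a diamond. Most genes called between KO 2 h and WT 0 h lie along the falling diagonal, where 3080 and 3353 calls are opposite, while most interferon genes lie in the upper right, where 149 genes were higher in both.

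Markers of other cell types were low or moved in few members. Of 11 macrophage markers Cd14, Lyz2 and Aif1 were higher in KO 2 h, their list summed to 47.3 to 49.2 CPM in WT 0 h and 59.6 to 96.8 CPM in KO 2 h, and the calls of Lyz2 and Aif1 were lost without WT 0 h replicate 1 (edgeR adjusted p = 0.198 and 0.287). Of 6 tested endothelial markers Vwf alone was higher, from 0.635 and 0.197 to 12.5 and 9.81 CPM (log2 fold change 4.73 with an SE of 0.40, edgeR adjusted p = 5.81e-09), and the list summed to 3.34 to 4.35 and 12.8 to 15.1 CPM. Skeletal muscle markers summed to 4.59 to 4.67 and 17.6 to 18.6 CPM, with Des and Tnnt1 (2.68, SE 0.62) higher of 4 tested. Epithelial markers summed to 6.30 to 7.13 and 3.26 to 3.99 CPM, with Krt14 lower (-2.37, SE 0.42) of 2 tested, and neural markers to 2.26 to 2.54 and 2.24 to 2.30 CPM, with Nes called higher of 4 tested although its libraries overlapped. The part of other cell types in these results was not tested.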

How the data were processed

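For every library the authors deposited raw counts of reads for 23304 gene symbols, followed by 4 summary lines. Per the submitters' processing notes, the tools were HTSeq, STAR 2.5.2b and bcl2fastq 2.15, and the build was mm9. Their roles, the annotation and strandedness: not given in the sources used here. The summary lines, 36.9 to 42.9% of the reads of the 4 libraries compared, stayed out of library sizes and tests. Counts were fitted with edgeR 4.0.16 in R 4.3.3: filterByExpr (minimum count 10, minimum total 15), TMM scaling, and a robust quasi-likelihood model with 1 coefficient per group over all 8 libraries, which has 4 residual degrees of freedom. P-values were adjusted over 12807 genes by Benjamini-Hochberg. Members and lists were chosen with earlier results of these data known. Named genes were Zmynd11, the 15 called genes with the largest rise and the 15 with the largest fall (mean of at least 1 CPM, groups not overlapping), and up to 4 called members per list by size of change; others were chosen after their values were seen. With values these were Isg15, Ifitm2, Ifi27l2a, Ifi44, Gbp4, Gbp9, Ifnar1, Ifnar2, Jak1, Tyk2, Socs1, B2m, H2-K1, Ccl2, Atf4, Hspa5, Timp1, H3f3a, H3f3b and Setd2, and the list members named only by their direction or as not passing were chosen likewise. Some items are not reported here. Lists were described by counts and medians, with no set test. Replicate numbers did not pair libraries. On simulated counts of 12560 genes for this comparison it found 40 of 67 genes set to 1.5-fold, 58 of 67 at 2-fold and 62 of 66 at 4-fold, with 10 unchanged genes called; this has far fewer changed genes than the data. Alternatives were RLE scaling, library size alone, DESeq2 1.42.0, other filters, the 4 libraries alone, leaving out libraries, testing against a fold of 1.5, and a replicate block. Floors of 3 reads cover counting error only.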

Additional observations from a re-analysis of the deposited data

Results flagged for a closer look

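In data outside the gene counts, a pair of read shares stood higher in both KO 2 h libraries than in both WT 0 h libraries. Mapped reads counted for no annotated feature made up a mean of 16.02% of all reads in KO 2 h (16.3 and 15.8%) and 13.3 and 13.1% in WT 0 h. In the other groups this share was 17.2 and 15.8% (WT 2 h) and 12.8 and 17.3% (KO 0 h). Unmapped reads made up a mean of 11.51% in KO 2 h (12.03 and 10.99%), against 6.18 and 9.12% in WT 0 h, 9.19 and 9.27% in WT 2 h and 8.45 and 10.01% in KO 0 h. What these reads are was not tested, nor whether those without a feature lay in introns or outside genes.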

How the results depend on the processing

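The count of called genes stayed within 1.5 times of 7975 under RLE scaling, library size alone, DESeq2, either filter change, the 4 libraries alone and removal of the chromosome shift (7424 to 8233), and it was 3090 against a fold of 1.5. Leaving out 1 library gave 6593 to 8377 calls, 2381 to 2693 of at least 2-fold, and 8439 to 9115 for the difference between the 2 comparisons; the run without KO 0 h replicate 2 was chosen after seeing the data, and a lone library was assumed to vary like the other groups. Replicate numbers did not mark pairs: deviations of same-numbered libraries correlated at -0.05 to -0.01 over the 6 pairs of groups, and a replicate block gave 7748 calls and 2525 of at least 2-fold, and 8924 for the difference. Over the 142 genes named by the rule and up to 13 alternatives, none changed direction, and 12 of 1846 values lost their call, beside those given above Aif1 with DESeq2 (adjusted p = 0.0585) and without KO 2 h replicate 2, Lyz2 with no filter and without WT 0 h replicate 2, and Hoxd10 without WT 0 h replicate 2. Of 364 totals of list calls, higher and lower together, all stayed within 1.5 times. At this depth a gene with no read in a group may still stand at up to 0.0735 CPM in WT 0 h or 0.0833 CPM in KO 2 h.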

Other observations

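Of the genes at least 2-fold higher in KO 2 h than in WT 0 h, 105 were also higher in KO 0 h than in WT 2 h. By the symbols of the count data, 49 of these are in none of the 4 interferon lists. The following were chosen after their values were seen. Cd274, the ligand of the checkpoint receptor PD-1, stood at 1.03 and 1.33 CPM in WT 0 h, 15.6 and 16.2 CPM in KO 0 h, 8.63 and 8.67 CPM in WT 2 h and 103 and 96.7 CPM in KO 2 h (log2 fold change 6.40 with an SE of 0.15, edgeR adjusted p = 2.47e-19). Its KO 2 h level lay above all other groups. Helz2, a helicase, rose from 22.5 and 23.05 to 432 and 375 CPM (log2 fold change 4.15 with an SE of 0.10, edgeR adjusted p = 5.27e-19) and stood at 218 and 229 CPM in KO 0 h and 33.5 and 41.5 CPM in WT 2 h. Samd9l, an antiviral restriction factor, rose from 29.6 and 24.03 to 353 and 307 CPM (log2 fold change 3.62 with an SE of 0.11, edgeR adjusted p = 5.66e-17) and stood at 281 and 332 CPM in KO 0 h, so that KO 0 h and KO 2 h overlapped. Uba7, which activates Isg15 for conjugation, was higher by 4.83 (SE 0.24), and I830012O16Rik, now named Ifit3b, by 7.81 (SE 0.29). The antiviral list holds Ifit3b under its new name, so this gene was not counted there. Slfn8, of the Schlafen family, stood at a mean of 8.10 CPM in KO 2 h and 22.6 CPM in KO 0 h, against 0.196 CPM in WT 0 h.

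When genes were split by length into 4 groups, the 3186 shortest had a median log2 fold change of -0.02, with 797 higher and 960 lower, and the 3185 longest had 0.07, with 1148 higher and 966 lower. Length is the span of the gene in the RefSeq table, and genes are not independent replicates.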
